A study of Mus musculus with 6 samples.

Results

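The genes described here are 45 actin cytoskeleton genes measured in brain endothelial cells of the mouse embryo, with the profilin gene Pfn1 at their head. They were taken by symbol from the 22958 gene entries of each deposited table, and each of the 45 symbols was found once. Pfn1 was chosen because it had one of the largest increases in the Axin1 libraries of this same comparison, so its values are given as a description and are not tested. The other 44 genes were chosen for their function in actin assembly, turnover and contraction. They cover a second profilin, 2 actins, 3 cofilin family genes, 2 thymosins, 8 genes of the Arp2/3 complex, and 4 genes of filament capping and monomer recycling. Beyond these stand 2 nucleation-promoting factors, 5 elongation factors, 5 myosin II subunits, and 6 filament side-binding proteins. The remaining 6 genes are Rhoa, Rac1, Cdc42, Limk1, Rock1 and Rock2.

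The study examined how expression in brain endothelial cells changes under overexpression of Axin1, a protein on which the beta-catenin destruction complex assembles. RNA sequencing was done on 6 libraries of polyadenylated RNA from cells sorted as CD31+, PECAM1+ at E11.5. The 3 Axin1 libraries came from embryos labelled Cdhrs5CreERT2:R26Axin1IL+/-, and the 3 control libraries from embryos labelled Cdhrs5CreERT2:R26Axin1IL-/-. All embryos were C57BL/6 x 129/Sv, carried the inducible Cre by their label, and were exposed to tamoxifen given to the mother at E9.5, so the controls share the Cre and the drug. The replicates are labelled biological, and the labels state neither sex and litter, nor how many embryos went into a library, nor in which cells the Cre acts. The p-values below therefore measure the spread between these libraries.

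Library totals were 11633853 to 14234409 reads in the Axin1 group and 10772492 to 13035808 in the control group. The Axin1 gene itself stood at 79.8, 62.2 and 66.2 CPM (TMM-normalised counts scaled to library size) in Axin1 libraries 1 to 3, against 25, 17.6 and 20.8 CPM in control libraries 1 to 3. The endothelial marker Pecam1, the antigen of the sort, stood at 1182 to 1331 CPM in the Axin1 libraries and 1199 to 1455 CPM in the controls. Summed macrophage markers were 2117, 3315 and 5161 CPM in Axin1 libraries 1 to 3 and 2451 to 3166 CPM in the controls, but Lcp1 alone gave 1744 to 2030 CPM in the Axin1 libraries and 1713 to 2039 CPM in the controls. The other 14 markers summed to 364, 1572 and 3132 CPM in Axin1 libraries 1 to 3, against 737, 1127 and 652 CPM in controls 1 to 3. Summed platelet markers ranged from 1035 to 3872 CPM in the Axin1 libraries and from 2117 to 2264 CPM in the controls. Erythroid markers ranged from 734 to 2992 CPM and from 2085 to 4108 CPM, with Hba-a1 at 0 in every library. Car2 alone gave 357 to 516 CPM of the erythroid sum in the Axin1 libraries and 1090 to 1396 CPM in the controls. Among the Axin1 libraries, Car2 was lowest in library 3 (357 CPM), where Hbb-y was highest (1887 CPM). Neural markers summed to 2688 to 3158 CPM in the Axin1 libraries and 2517 to 3003 CPM in the controls, most of it from Vim and Nes, which endothelial cells also express. Without these the tested neural markers summed to 122, 182 and 207 CPM in the Axin1 libraries and 137, 185 and 276 CPM in the controls, with Tubb3 the widest of them in the controls, at 14.4, 34.6 and 106 CPM. Sox2 was at 0 in control 1. The 14 macrophage markers and the 9 neural markers were split off after the data were seen. Mural and mesenchymal markers were low, at 127 to 204 CPM in the Axin1 libraries and 61.3 to 175 CPM in the controls. In such bulk samples, fewer cells of a type and less RNA per cell cannot be told apart. Control library 3 stood apart from the other two controls for some endothelial genes: Cdh5, a junctional cadherin, was at 981, 945 and 924 CPM in the Axin1 libraries, and at 432, 502 and 846 CPM in controls 1 to 3.

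Actin filaments grow by addition of ATP-bound monomers at the barbed end and lose monomers at the pointed end. Profilin binds monomers, promotes exchange of their nucleotide and hands them to formins and Ena/VASP proteins, while thymosins hold monomers in reserve and cofilins sever old filaments. The Arp2/3 complex starts branches when activated by WAVE and N-WASP proteins, capping protein stops barbed ends, and myosin II pulls on filaments. In endothelial cells these proteins shape junctions, filopodia of sprouting tip cells and responses to flow. Many actin genes are transcribed by serum response factor (SRF), whose cofactors sense the pool of free actin monomer, and SRF binds a sequence called the CArG box.

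Several of these genes have near-identical copies, which bears on every count that follows. Each coding sequence was cut into overlapping 40-base words, and each word was looked up in all other GENCODE transcripts of the GRCm38 build, which is a later build than the mm9 named in the submitters' processing notes. For 20 of the 45 genes no word was found elsewhere, for 14 up to 50% were, and for 11 more than 50% were. Pfn1 was among the first: none of its 381 words occurred in another annotated gene. With 25-base words, tried after seeing the data, 3.79% of its words were found elsewhere, in 1 pseudogene. The best of its 2 pseudogene copies, meaning matches that cover at least 80% of the coding sequence, was 83.9% identical. At the other end, all 1086 words of Actg1, which encodes gamma-actin, were found in other genes, and 99.45% of them in pseudogenes. The first 60 coding bases show this: Actg1 and its pseudogene Gm12715 had 0 differences, while Actb, which encodes beta-actin, had 9, given below in capitals.
Actg1 (chromosome 11): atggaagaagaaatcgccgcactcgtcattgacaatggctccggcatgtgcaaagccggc
Gm12715 (chromosome 4): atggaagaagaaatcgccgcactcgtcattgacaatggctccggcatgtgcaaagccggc
Actb (chromosome 5): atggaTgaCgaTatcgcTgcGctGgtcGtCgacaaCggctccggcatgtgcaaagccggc
Over the whole coding sequence Actb and Actg1 were 88.6% identical, and 31.8% of the words of Actb were found in other genes.

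The deposited tables hold a trace of how such genes were counted. Reads, RPKM (a read value per length and library size) and library total together give the length that the authors' RPKM used for a gene. For Pfn1 this was 878 bases, against 420 bases of coding sequence and a transcript of 861. For Actg1 it was 350 bases against 1125 of coding sequence, or 31.1%, and for the myosin light chain gene Myl6 it was 147 against 453, or 32.5%. Capza1 had 691 against 858 and the tropomyosin gene Tpm3 had 833 against 855. These 4 genes of the 45 had a length under their coding length, as had 6.31% of the 16491 entries with both lengths, and all 4 had more than 50% of their words in other genes. How reads with several matches were treated is not given in the sources used here. Of the 11 genes over 50% shared words, levels are therefore uncertain for Actg1, Tmsb10, Myl6, Capza1, Tpm3, Actr3, Cfl1, Myl12b, Rhoa and Tpm4. The other is Tagln, whose shared words (80.5%) all lay in Gm48529, an antisense gene that overlaps it on the opposite strand. In pseudogenes it had 0% of its words. Its level is uncertain because the strand setting of the counting is not given either.

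**Figure D1:**
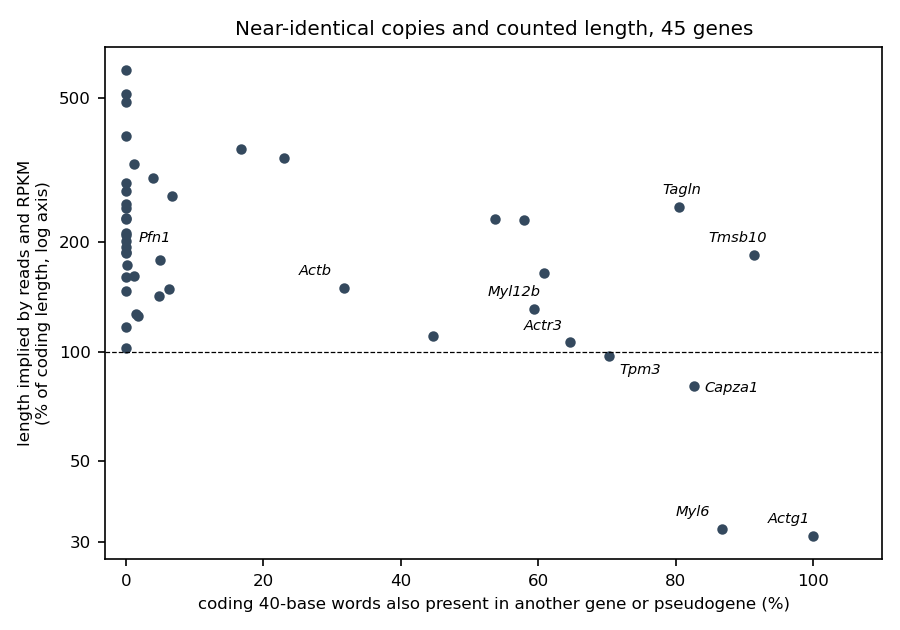
Each point is 1 of the 45 genes. The x axis gives the percentage of its 40-base coding words that occur in another gene or pseudogene, and the y axis (log scale) the length implied by reads and RPKM as a percentage of the coding length. Actg1 (31.1%) and Myl6 (32.5%) lie far below the dashed line at 100%, Capza1 and Tpm3 just below it, and Pfn1 above it at 0 shared words.

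Taken by edgeR's quasi-likelihood test over the 12661 genes that passed the filter on low counts, which all 45 genes did, the actin genes other than Pfn1 gave no call. Of these 44, 0 had an adjusted p under 0.05 in either direction, and 11 had an unadjusted p under 0.05, which is 25% of them against 17.2% of all tested genes. Over all tested genes the adjusted p passed for 107, or 0.845%, of which 0.355% were higher and 0.490% lower in the Axin1 libraries. DESeq2 called 5 of the 44, or 11.4%, against 5.69% of all tested genes. Arpc2 was the 1 called higher, beside 3.17% of all genes, and Tmsb10, Arpc1a, Arpc3 and Myl6 were the 4 called lower, beside 2.52%. The Axin1 and control libraries did not overlap for 11 of the 44 (25%), 6 higher and 5 lower, against 23.8% of all tested genes (11.3% higher and 12.4% lower), so the share of separated genes was near the background. The median log2 fold change (Axin1 over control) was 0.08 over the 45 genes and 0.02 over all tested genes. In 39 of the 45 genes it lay within 0.5 of 0, and 27 were above 0 and 18 below.

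**Figure D2:**
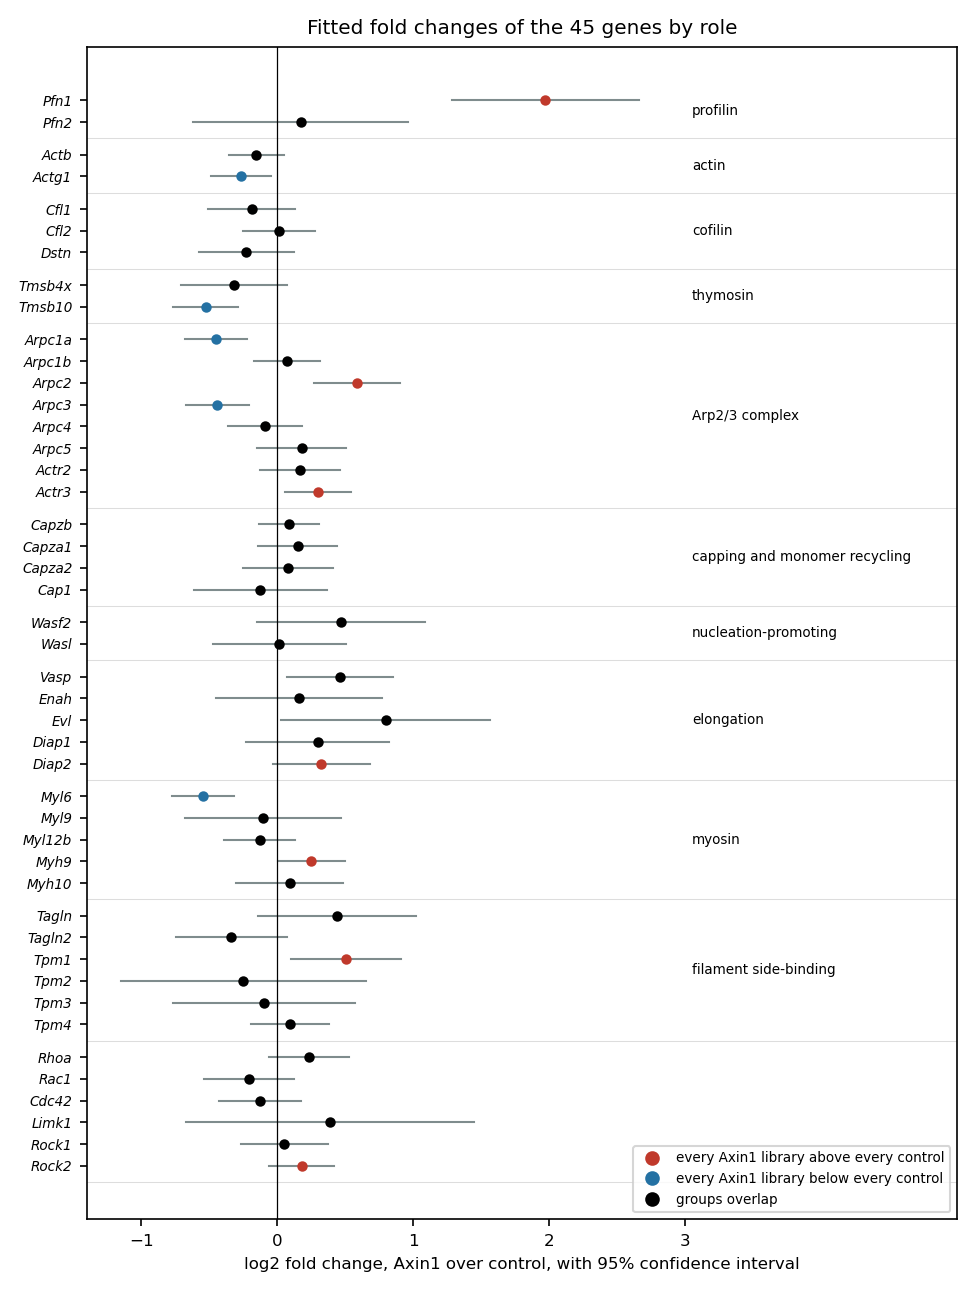
Points give the fitted log2 fold change (Axin1 over control) of each of the 45 genes, grouped by role (the last group is unlabelled), with its 95% confidence interval. Pfn1 lies at 1.97, a value that led to its choice, and all other genes lie between -0.55 and 0.80.

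Pfn1 (NM_011072) encodes the profilin of most tissues outside the nervous system. It stood at 624, 1114 and 766 CPM in Axin1 libraries 1 to 3, against 184, 167 and 288 CPM in control libraries 1 to 3. Every Axin1 library was above every control library, with Axin1 library 2 the highest and control library 3 the highest of the controls. The means were 835 ± 252 CPM in the Axin1 group and 213 ± 65.4 CPM in the control group (SD, n = 3 each), a log2 fold change of 1.97 (SE 0.29) that chose the gene. Leaving out 1 library at a time gave values from 1.70 to 2.24. Per length, Pfn1 stood at 708 to 1296 RPKM in the Axin1 libraries and 191 to 331 RPKM in the controls, and ranked 138 among all entries by mean RPKM. The closest value below Pfn1 in the set, Evl at 0.80, had overlapping groups.

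Pfn2, the profilin known chiefly from neurons, was a minor transcript here. It was at 19.1, 21.8 and 21.2 CPM in the Axin1 libraries, against 9.10, 19.6 and 26.3 CPM in the controls, and the controls enclosed all the Axin1 values. Its log2 fold change was 0.17 (95% confidence interval -0.62 to 0.96). Pfn1 made up 98.9% ± 0.24 of the summed RPKM of both profilins in the Axin1 libraries and 96.4% ± 1.37 in the controls (SD, n = 3 each). The profilin pool was therefore read almost wholly from Pfn1 in every library.

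The Pfn1 promoter in RefSeq (GRCm38.p6, chr11:70654601-70654900, minus strand, from 250 bases before to 50 after the start) is shown because Pfn1 has the largest fold change of the set. It held no CArG box on either strand. Promoters of 40 of the 45 genes were found in the RefSeq table, 47 in number, and 4 of the 47 (8.51%) held a CArG box, against 535 of all 32851 promoters in the table (1.63%). Actb, Diap1, Tagln, Rac1 and Rock1 had no entry and are not in this count. The 4 promoters belonged to Actg1, Myl6, Myl9 and Arpc4. The promoters of Actg1 (chr11:120348446-120348745, minus strand) and Myl6 (chr10:128492960-128493259, minus strand) are shown beside that of Pfn1 because both genes had every Axin1 library below every control. Myl9 and Arpc4 had overlapping groups, with log2 fold changes of -0.11 and -0.09. Tmsb10, Arpc1a and Arpc3 also had every Axin1 library below every control, and their promoters held no CArG box. The CArG box is in capitals, and starts at base -90 in Actg1 and at base -50 in Myl6 relative to the transcription start.
Pfn1: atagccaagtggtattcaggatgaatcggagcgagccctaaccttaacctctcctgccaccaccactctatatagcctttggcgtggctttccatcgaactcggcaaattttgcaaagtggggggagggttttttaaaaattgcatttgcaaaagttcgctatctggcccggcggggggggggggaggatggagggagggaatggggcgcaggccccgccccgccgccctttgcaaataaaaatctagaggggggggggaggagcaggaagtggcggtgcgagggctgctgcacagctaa
Actg1: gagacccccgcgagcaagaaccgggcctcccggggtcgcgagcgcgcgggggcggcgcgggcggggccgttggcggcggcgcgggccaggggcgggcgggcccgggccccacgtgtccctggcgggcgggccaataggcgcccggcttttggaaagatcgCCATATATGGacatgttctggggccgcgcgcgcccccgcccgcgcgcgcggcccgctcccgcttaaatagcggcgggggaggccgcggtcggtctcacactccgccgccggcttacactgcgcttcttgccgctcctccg
Myl6: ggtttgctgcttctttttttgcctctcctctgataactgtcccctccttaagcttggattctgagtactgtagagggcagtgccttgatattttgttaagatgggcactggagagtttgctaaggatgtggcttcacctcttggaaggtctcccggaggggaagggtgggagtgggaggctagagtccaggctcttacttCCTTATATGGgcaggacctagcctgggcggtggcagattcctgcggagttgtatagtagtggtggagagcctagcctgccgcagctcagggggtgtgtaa
A match is a description of the sequence and does not show that SRF binds there.

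Actb was the most abundant of the 45 transcripts per length, and Actg1 came below Tmsb4x. Actb ranked 1 and Actg1 ranked 4 among all entries by mean RPKM, and Actb alone took 3.01% to 3.32% of all reads in the Axin1 libraries and 3.26% to 3.67% in the controls. Actb stood at 30194, 32567 and 32370 CPM in the Axin1 libraries, against 36987, 36663 and 32229 CPM in the controls. Axin1 libraries 2 and 3 lay above control 3 and below controls 1 and 2, so the groups overlapped, with a log2 fold change of -0.15 (95% confidence interval -0.36 to 0.05). Actg1 stood at 2923, 2934 and 3272 CPM in the Axin1 libraries, against 3866, 3732 and 3397 CPM in the controls. Every Axin1 value was below every control value, but by a log2 fold change of only -0.27 (SE 0.10) that did not pass the test (edgeR adjusted p = 0.213). The counted length of Actg1, 31.1% of its coding length, applies to this value and to its rank as well.

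Actin and profilin were also set against each other per length. The ratio of Actb to Pfn1 RPKM was 25.2, 15.2 and 22.0 in Axin1 libraries 1 to 3, and 105, 114 and 58.2 in control libraries 1 to 3. Control 3 came nearest to the Axin1 libraries but did not reach them. This ratio uses the Pfn1 values that chose the gene and is given with no test.

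Thymosins bind actin monomers and keep them from polymerising. Tmsb4x, ranked 3 by mean RPKM, was at 6819, 8303 and 10401 CPM in the Axin1 libraries, against 11084, 11852 and 8893 CPM in the controls. Axin1 library 3 exceeded control 3, so the groups overlapped (log2 fold change -0.32, 95% confidence interval -0.71 to 0.07). Tmsb10, a closely related thymosin, was at 436, 432 and 411 CPM in the Axin1 libraries, against 659, 635 and 550 CPM in the controls. All Axin1 values lay below all control values, in a narrow band. The log2 fold change was -0.53 (SE 0.10; adjusted p = 0.0605 in edgeR and 0.00207 in DESeq2). Of the coding words of Tmsb10, 91.4% occur in other genes, 6 of them pseudogenes.

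Cofilins sever and depolymerise filaments, and none of the 3 genes had separated groups. Cfl1, the main form outside muscle, was at 1737, 1743 and 2054 CPM in the Axin1 libraries, against 2536, 1870 and 1903 CPM in the controls. Control 1 was the highest of the 6 and Axin1 library 3 lay above the other controls. Cfl2, the muscle form, was at 105, 107 and 113 CPM in the Axin1 libraries and 104, 120 and 98.5 CPM in the controls. Dstn, which encodes destrin, was at 488, 497 and 645 CPM in the Axin1 libraries and 695, 690 and 524 CPM in the controls. Their log2 fold changes were -0.19, 0.01 and -0.23, and the 95% confidence intervals reached from -0.58 at the lowest to 0.28 at the highest. Cfl1 held 84.8% ± 0.65 of the summed RPKM of the family in the Axin1 libraries and 84.5% ± 2.32 in the controls (SD, n = 3 each).

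**Figure D3:**
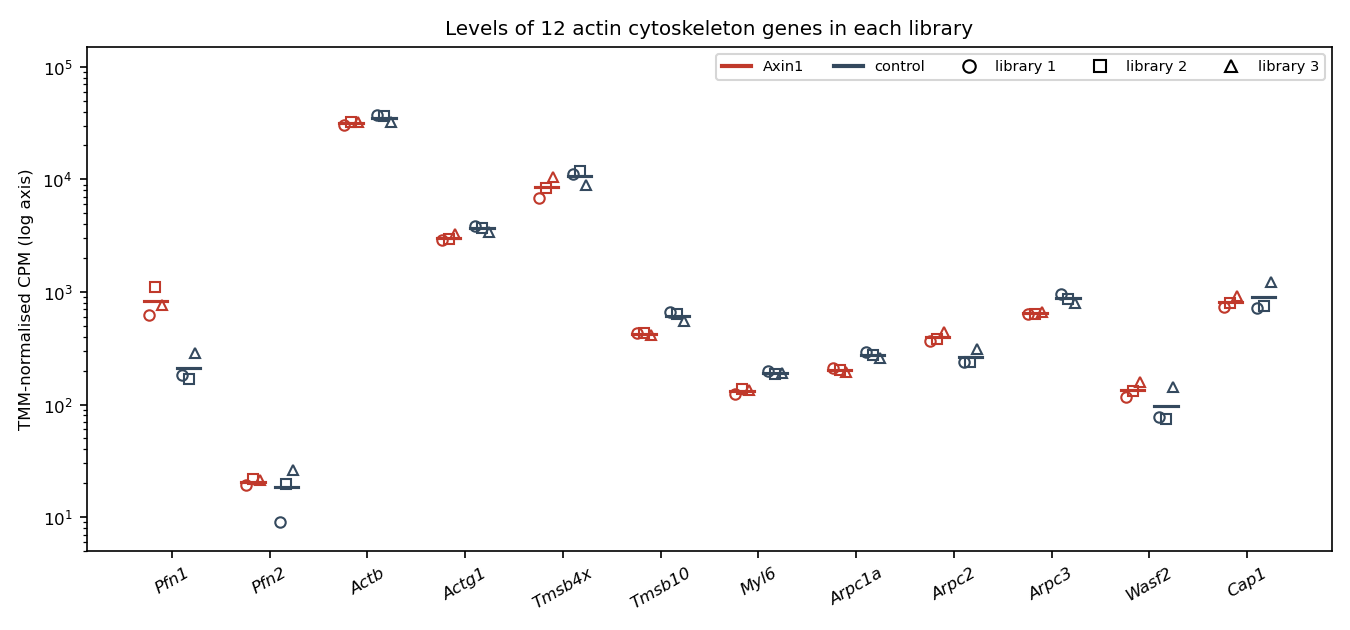
Points are the TMM-normalised CPM (log axis) of 12 of the genes in each library, with Axin1 libraries left of control libraries and a bar at the mean of 3. Pfn1 separates widely, Tmsb10, Myl6, Arpc1a and Arpc3 separate by a small step with the Axin1 libraries below, and Wasf2 and Cap1 show control 3 above the other controls.

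The Arp2/3 complex had subunit genes that lay in both directions. It nucleates branched filaments, with the actin-related proteins Arp2 (Actr2) and Arp3 (Actr3) at its core and the ARPC subunits as scaffold. Arpc2, a scaffold subunit, was at 363, 382 and 441 CPM in the Axin1 libraries, against 237, 240 and 312 CPM in the controls. All Axin1 libraries were above all controls, with control 3 again the highest control. The log2 fold change was 0.59 (SE 0.14; adjusted p = 0.0936 in edgeR and 0.0089 in DESeq2).

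Arpc3, another small subunit, was lower in each Axin1 library, at 641, 636 and 658 CPM in the Axin1 libraries, against 959, 871 and 797 CPM in the controls. Arpc1a, 1 of 2 alternative forms of the same subunit, was at 209, 202 and 193 CPM in the Axin1 libraries and 292, 275 and 258 CPM in the controls. Both genes had groups that did not overlap. The log2 fold changes were -0.44 (SE 0.10) for Arpc3 and -0.45 (SE 0.10) for Arpc1a, with edgeR adjusted p of 0.0873 and 0.0807 and DESeq2 adjusted p of 0.0126 and 0.00937. Arpc1b, the other form, was at 547, 644 and 654 CPM in the Axin1 libraries and 605, 556 and 592 CPM in the controls. Its groups overlapped, and its log2 fold change of 0.07 had a 95% confidence interval of -0.17 to 0.32. The share of Arpc1a in the summed RPKM of both forms was 20.4% ± 2.21 in the Axin1 libraries and 26.8% ± 1.31 in the controls (SD, n = 3 each).

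Actr3 was at 285, 263 and 304 CPM in the Axin1 libraries and 234, 244 and 215 CPM in the controls, without overlap (log2 fold change 0.30, SE 0.11, edgeR adjusted p = 0.201). Actr2 was at 760, 757 and 944 CPM in the Axin1 libraries and 713, 821 and 658 CPM in the controls. Arpc4 was at 715, 770 and 808 CPM in the Axin1 libraries and 921, 810 and 711 CPM in the controls. The groups of Actr2 and Arpc4 overlapped. Arpc5 was at 436, 403 and 421 CPM in the Axin1 libraries and 414, 407 and 292 CPM in the controls, where control 3 was low and the other controls lay within the Axin1 range. The log2 fold changes of Actr2, Arpc4 and Arpc5 were 0.17, -0.09 and 0.18.

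Set against each other per length, the subunits were unequal in both groups. Arpc3 held 27.5% ± 0.92 of the summed RPKM of the 8 genes in the Axin1 libraries and 35.6% ± 0.93 in the controls. Arpc2 held 8.93% ± 0.47 in the Axin1 libraries and 5.73% ± 1.33 in the controls, and Arpc1a 4.65% ± 0.40 and 6.05% ± 0.05 (SD, n = 3 each). The ratio of Arpc2 to Arpc3 RPKM was 0.301, 0.319 and 0.355 in the Axin1 libraries, and 0.131, 0.146 and 0.208 in the controls. All Axin1 ratios were above all control ratios, which follows from Arpc2 being higher and Arpc3 lower in every Axin1 library. With 3 libraries against 3 an exact two-sided permutation test cannot give a p below 0.1, so these shares and ratios are descriptions. Of their 40-base words, Arpc2 shared 4.99%, Arpc1a 4.76% and Arpc3 0% with other genes.

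**Figure D4:**
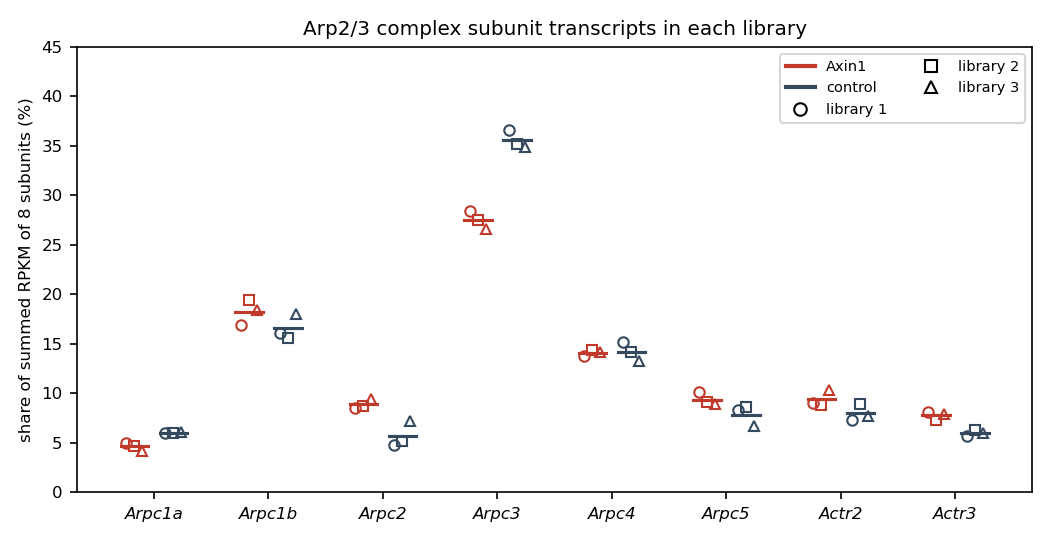
Each point is the share of a subunit gene in the summed RPKM of the 8 Arp2/3 genes in a library, with Axin1 libraries left of control libraries and a bar at the mean of 3. Arpc3 lies between 26.6% and 28.4% in the Axin1 libraries and between 34.9% and 36.6% in the controls, while Arpc2 lies higher in the Axin1 libraries.

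Among activators of the complex, Wasf2, which encodes the WAVE protein of many cell types, was at 117, 131 and 158 CPM in the Axin1 libraries, against 77.9, 73.8 and 142 CPM in the controls. Control 3 lay within the Axin1 range and the other controls lay below it. The log2 fold change was 0.47 (95% confidence interval -0.15 to 1.09, edgeR adjusted p = 0.418), and without control 3 it was 0.82 (edgeR adjusted p = 0.0210). Wasl, which encodes N-WASP, was at 29.8 to 46.9 CPM in the Axin1 libraries and 30.3 to 42.2 CPM in the controls, with a log2 fold change of 0.02.

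Capping protein is a dimer of an alpha and a beta subunit that blocks barbed ends. Capzb averaged 737 ± 36.4 CPM in the Axin1 libraries and 694 ± 37.4 CPM in the controls, Capza1 317 ± 48.7 and 286 ± 17.1 CPM, and Capza2 683 ± 89.0 and 647 ± 101 CPM (SD, n = 3 each). All 3 genes had overlapping groups. Cap1, which recycles monomers from cofilin, was at 738, 799 and 920 CPM in the Axin1 libraries, against 714, 752 and 1215 CPM in the controls. Control 3 was the highest of all 6 libraries, and the log2 fold change was 0.15 without it, against -0.13 with all libraries. None of these 4 genes had a 95% confidence interval that left out 0.

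All 5 elongation factors had a positive fitted fold change, though none passed the test. Ena/VASP proteins and formins speed growth at barbed ends using profilin-bound actin. Vasp was at 91.8, 72.3 and 101 CPM in the Axin1 libraries, against 60.3, 55.6 and 76.9 CPM in the controls, and control 3 exceeded Axin1 library 2. Its log2 fold change was 0.46 (95% confidence interval 0.07 to 0.85, edgeR adjusted p = 0.224). Evl was at 7.83, 13.7 and 20.5 CPM in the Axin1 libraries, against 8.23, 8.90 and 6.99 CPM in the controls. Axin1 library 1 was within the control range, and Axin1 library 3 was the highest, as for the summed macrophage, platelet, erythroid and neural markers. The part of macrophage transcripts in the Evl values was not tested. The log2 fold change of Evl was 0.80 (SE 0.34, edgeR adjusted p = 0.274), and without single libraries it ranged from 0.42 to 1.08. Enah averaged 15.2 ± 5.06 CPM in the Axin1 libraries and 13.6 ± 2.28 CPM in the controls, and Vasp held 73.4% ± 3.69 and 73.2% ± 4.06 of the summed RPKM of the 3 Ena/VASP genes (SD, n = 3 each). The formin genes, listed under the symbols Diap1 and Diap2, had log2 fold changes of 0.30 and 0.32. Diap2 did not overlap, at 24.8 to 29.6 CPM in the Axin1 libraries and 19.9 to 23.8 CPM in the controls.

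Of the myosin II genes, the light chain Myl6 had the largest negative fold change of all 45. It was at 124, 137 and 134 CPM in the Axin1 libraries, against 200, 188 and 189 CPM in the controls. The groups were narrow and far from overlapping, and the within-group SD of Myl6, 0.06 on the log2 scale, was the smallest of the 45 genes, whose median was 0.20. The log2 fold change was -0.55 (SE 0.10; adjusted p = 0.0507 in edgeR and 0.000976 in DESeq2). Its counted length of 147 bases and its 86.7% of shared words limit what this count stands for. The heavy chain Myh9 was at 464, 555 and 561 CPM in the Axin1 libraries and 425, 449 and 454 CPM in the controls, without overlap (log2 fold change 0.25, SE 0.11, edgeR adjusted p = 0.283). Myh10, the other nonmuscle heavy chain, averaged 579 ± 52.4 CPM in the Axin1 libraries and 544 ± 135 CPM in the controls (SD, n = 3 each). The regulatory light chains Myl9 and Myl12b had log2 fold changes of -0.11 and -0.13 with overlapping groups. Myl9 was at 97.4, 160 and 205 CPM in the Axin1 libraries, against 159 to 173 CPM in the controls, so the Axin1 libraries spread to both sides of the controls.

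Tropomyosins and transgelins lie along filaments and set which other proteins reach them. Tpm1 was at 516, 333 and 362 CPM in the Axin1 libraries, against 324, 271 and 257 CPM in the controls. The groups were apart by a small gap, with Axin1 library 1 well above the rest. The log2 fold change was 0.51 (SE 0.18, edgeR adjusted p = 0.203), and without single libraries it ranged from 0.29 to 0.63. Tpm4, the most abundant tropomyosin per length, held 48.5% to 52.7% of the family's RPKM in the Axin1 libraries and 45.6% to 57.1% in the controls, and Tpm1 held 13.8% to 15.8% and 10.2% to 12.7%. Tpm2 had the widest within-group spread of the 45 genes (0.62 on the log2 scale), at 10.9, 26.8 and 35.0 CPM in the Axin1 libraries and 26.5 to 32.4 CPM in the controls. Tpm3 had a log2 fold change of -0.10 with a 95% confidence interval of -0.77 to 0.58. Tagln2 averaged 1020 ± 77.7 CPM in the Axin1 libraries and 1288 ± 329 CPM in the controls (SD, n = 3 each), and made up 99% or more of transgelin RPKM in every library. Tagln, a smooth muscle marker, was at 7.18 to 11.3 CPM in the Axin1 libraries and 6.39 to 7.82 CPM in the controls.

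Rhoa averaged 503 ± 80.6 CPM in the Axin1 libraries and 428 ± 4.17 CPM in the controls, and Cdc42 averaged 1437 ± 149 and 1570 ± 223 CPM (SD, n = 3 each). Rac1 was at 145 to 186 CPM in the Axin1 libraries and 180 to 232 CPM in the controls. Rock2 had separated groups, at 126 to 135 CPM in the Axin1 libraries and 110 to 126 CPM in the controls, a gap smaller than the rounding, and its 95% confidence interval of -0.06 to 0.42 held 0. Rock1 had a log2 fold change of 0.05. Limk1, the kinase that inactivates cofilin, was the lowest of the 45, at 1.60, 3.99 and 5.19 CPM in the Axin1 libraries and 2.30 to 3.06 CPM in the controls. Within the Axin1 group, 20 of the 45 genes (44.4%) were lowest in library 1 and highest in library 3, against 22.7% of all tested genes. Limk1, Tpm2, Myl9, Tmsb4x, Evl, Arpc2 and Wasf2 were among the 20. The summed macrophage, platelet, erythroid and neural markers had the same order, and the endothelial and mural sums did not. The neural sum kept this order without Vim and Nes. The part of other cell types in the values was not tested.

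The fold changes were set beside the counted length of each gene, a comparison chosen after the data were seen. Among the 10 genes with an implied length under 1000 bases the median log2 fold change was -0.23, and 8 of the 10 were negative. Over all 1289 tested genes of that length the median was -0.16. From 1000 to 2000 bases the medians were 0.08 for 18 of the actin genes and -0.04 for all genes. From 2000 to 4000 bases they were 0.16 and 0.03, and above 4000 bases 0.21 and 0.11, with none of the 8 longest actin genes negative. Tmsb10, Myl6, Actg1 and Arpc3, 4 of the 5 genes with all Axin1 libraries below all controls, had implied lengths under 1000 bases, and Arpc1a had 1582. Pfn1, at 878 bases, lay at 1.97 in a length class with a median of -0.16. Implied length is not transcript length for every gene: Actg1 had a transcript of 1952 bases against its implied 350, and Capza1 3193 against 691. The transcripts of Myl6 (665 bases), Tmsb10 (570 to 690) and Arpc3 (899) were under 1000 bases. The part of counted length in these differences was not tested beyond these medians.

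**Figure D5:**
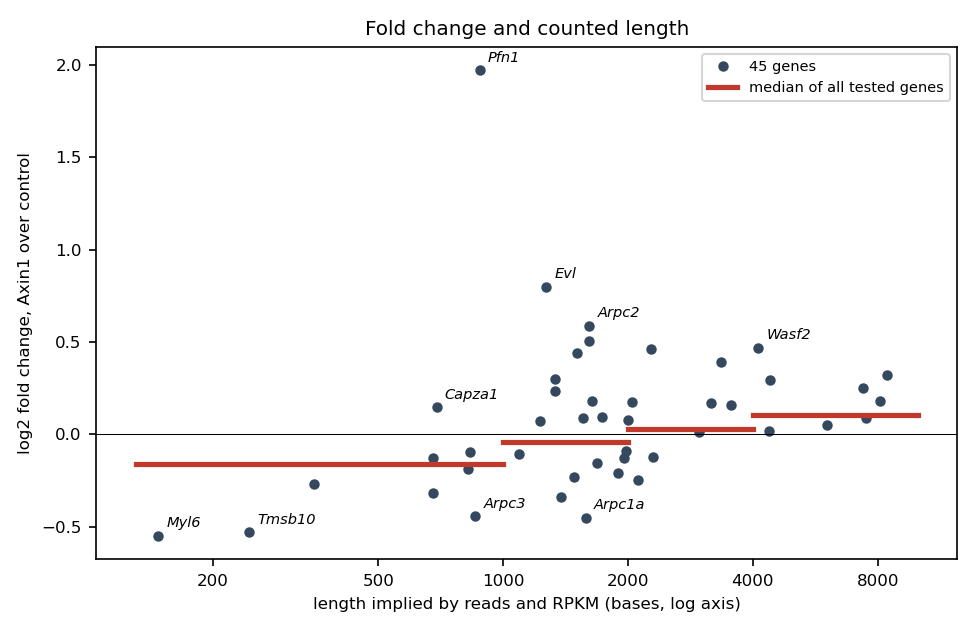
Points are the 45 genes, with the length implied by reads and RPKM on the x axis (bases, log scale) and the log2 fold change (Axin1 over control) on the y axis. Red bars are medians of all tested genes in 4 length classes and go from -0.16 in the shortest to 0.11 in the longest, and Pfn1 stands alone above 1.

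Base composition was also set beside the values, again after the data were seen. The coding sequence of Pfn1 had 56.4% GC. The 3267 tested genes with 55% to 60% GC had a median log2 fold change near 0, and 4.71% of them exceeded 1, against 8.16% of genes at 60% GC or more. Control 3 minus the mean of the other controls had a median of -0.13 in genes under 45% GC and 0.15 in genes at 60% or more, on the log2 scale. This library was the lowest of its group for 29 of the 45 genes and the highest for 10, among them Pfn1, Arpc2, Wasf2 and Cap1. These ranks were not counted over all tested genes. Arpc2 had 45.9% GC, in a class where the median of that difference was -0.07. Cap1 (50.4%) and Wasf2 (54.7%) were in a class at 0.002, and Pfn1 in a class at 0.09. The part of base composition in the values of these genes was not tested.

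In GENCODE, 11 of the 45 genes have exons that overlap those of an opposite-strand gene, and the strand setting of the counting is not given in the sources used here. These are Arpc1a, Arpc1b, Rac1, Tagln, Cfl1, Cfl2, Rhoa, Cap1, Capza1, Evl and Tpm4. Reads of such pairs cannot be told apart without strand. Arpc4, Actg1 and Myl12b overlap other genes on their own strand, in the case of Myl12b a second annotated gene of the same symbol. Pfn1, Arpc2, Arpc3 and Tmsb10 are in neither group.

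Among actin regulators outside the 45 genes, 45 of 55 listed genes passed the filter, and 1 rose and 0 fell by edgeR, beside 0.355% and 0.490% of all tested genes. DESeq2 called 1 higher and 2 lower, beside 3.17% and 2.52%. Ssh2, a slingshot phosphatase that activates cofilin, was at 70.1, 59.9 and 73.3 CPM in the Axin1 libraries, against 33.9, 40.1 and 42.7 CPM in the controls. All Axin1 libraries lay above all controls, and the log2 fold change was 0.80 (SE 0.14, edgeR adjusted p = 0.0492). Without control 2 or without Axin1 library 2, edgeR called 0 genes, so neither Ssh2 nor Mcm6 and Car2, named further on, passed (1539 and 1733 genes had an unadjusted p under 0.05). For the formin gene Fmnl3 the log2 fold change was -0.77 (edgeR adjusted p = 0.0507), at 64.9 to 80.1 CPM in the Axin1 libraries and 111 to 138 CPM in the controls. The WAVE genes Wasf1 and Brk1, the second listed as 6720456B07Rik, gave log2 fold changes of -0.75 and -0.39 (edgeR adjusted p = 0.121 and 0.124). Both also had every Axin1 library below every control.

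None of 20 crosslinkers and membrane linkers or 22 MRTF-SRF target genes passed the edgeR test, while DESeq2 called 1 in each list, beside 5.69% of all tested genes. Unadjusted edgeR p was under 0.05 for 3 of the 20 and 6 of the 22, beside 17.2% of all tested genes. Actn4, an alpha-actinin that bundles filaments, was at 1033, 1088 and 920 CPM in the Axin1 libraries, against 433, 387 and 769 CPM in the controls, where control 3 was again nearest to the Axin1 libraries (log2 fold change 0.94, edgeR adjusted p = 0.147). The SRF target Fhl2 was at 24.5, 15.6 and 18.4 CPM in the Axin1 libraries, against 9.10, 9.82 and 6.16 CPM in the controls (log2 fold change 1.22, edgeR adjusted p = 0.0717). The groups did not overlap for either gene. The SRF list also holds Actb, Actg1, Myl9, Tagln, Tpm1 and Tpm2 of the 45, and its median log2 fold change of 0.13 stood beside 0.02 for all tested genes.

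Of 18 dissociation stress genes 0 passed the edgeR test and 5 had an unadjusted p under 0.05, beside 17.2% of all tested genes. DESeq2 called 2, Hspa1a and Junb, beside 5.69%. Every Axin1 library was above every control for Hspa1a, Junb, Atf3, Jun and Fosb, and below for Hspb1. These are 5 and 1 of the 18, beside 11.3% and 12.4% of all tested genes. The list's median log2 fold change was 0.40, with 14 genes above 0 and 4 below. The stress gene nearest the threshold was the heat shock gene Hspa1a, at 36.4, 15.8 and 38.1 CPM in the Axin1 libraries and 8.93, 8.36 and 9.47 CPM in the controls (log2 fold change 1.75, edgeR adjusted p = 0.0561). Of 15 proliferation genes, Mcm6 rose (log2 fold change 1.28, edgeR adjusted p = 0.0491), beside 0.355% of all tested genes, and the other 14 did not pass. In this list 12 genes were below 0 and 3 above, with a median log2 fold change of -0.12. Mcm2, Mcm3, Mcm5 and Mcm7 had log2 fold changes of -0.006, -0.16, -0.22 and -0.27. Of the cell type markers, 0 of 12 endothelial, 0 of 13 mural and mesenchymal, 0 of 15 macrophage, 0 of 12 platelet and 0 of 11 neural genes passed. Unadjusted edgeR p was under 0.05 for 3, 0, 0, 1 and 0 of them, beside 17.2% of all tested genes. DESeq2 called 1 endothelial and 1 platelet gene of these, beside 5.69% of all tested genes. The erythroid list gave 1 gene of 7 that fell, Car2 (log2 fold change -1.41, edgeR adjusted p = 0.0208).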

How the data were processed

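The authors deposited 1 table per library, which per the file headers holds a read count and an RPKM value for each of 22958 RefSeq entries. The submitters' processing notes name Bowtie and mm9 without versions. How reads were counted, on which strand and with which treatment of multiple matches is not given in the sources used. The deposited counts were tested with edgeR 4.0.16 (R 4.3.3; quasi-likelihood test, robust, TMM, filterByExpr minimum count 10 and minimum total 15, Benjamini-Hochberg over 12661 genes, threshold 0.05), 3 Axin1 libraries against 3 controls, without covariates. CPM values are TMM-normalised. The authors' deposited RPKM served to compare genes per length and to derive the length they imply. DESeq2 1.42.0 and limma 3.58.1 on log2(RPKM + 1) were alternatives, with other filters, scalings, blocks and left-out libraries. The scripts were tested on simulated data.

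Pseudogene copies were found with blastn 2.17.0 and shared words in GENCODE M21 (GRCm38), a later build than mm9. Promoters came from RefSeq (GRCm38.p6). The 45 genes, the other lists and the markers were chosen with earlier results of these data known. Values in every library are given for Pfn1, Pfn2, actins, cofilins, thymosins, Arp2/3 genes, genes called by edgeR or DESeq2, and the 8 largest fold changes with a mean of at least 5 CPM. From each other list, called genes or up to 4 with the smallest p qualified, and the text prints part of these. A few further genes shown per library were chosen after their values were seen. Libraries of a group differed beyond sampling noise in every pair (chi-square over degrees of freedom 16.3 to 46.4). The results of 1 further gene list are not reported here.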

Additional observations from a re-analysis of the deposited data

How the results depend on the processing

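Over 17 alternatives the fold changes of the 45 genes gave 765 values, of which 695 kept direction and side of the threshold, 28 turned sign, 33 newly passed and 9 no longer passed. All 9 that no longer passed were values of Pfn1, which passed in 8 of the 17 alternatives. No gene that turned sign had a log2 fold change beyond 0.391. The counts of genes called higher include Pfn1, whose choice from this comparison fixed its call, so Pfn1 is no result in them. Genes called higher, 1 with the main settings (Pfn1) and 0 others, numbered 0 with library totals only, 2 by DESeq2 (Pfn1 and Arpc2), 0 without a filter and 0 to 3 when 1 library was left out. Genes called lower, 0 with the main settings, numbered 4 by DESeq2, 1 by limma on log2(RPKM + 1), 2 without a filter, 2 with at least 1 CPM in all libraries, and 0 to 4 when 1 library was left out. The highest of both ranges came without control 3 (Arpc2 and Wasf2 higher beside Pfn1, with Arpc1a, Arpc3, Myl6 and Tmsb10 lower). In that fit 513 of all 12932 tested genes were called higher and 182 lower. Of all 12661 tested genes, DESeq2 called 401 higher and 319 lower, limma 43 and 63, and library totals only 40 and 55. Without a filter 94 and 103 of 17804 were called, and with at least 1 CPM in all libraries 73 and 79 of 11279. All genes called, 107 with the main settings, numbered 720 by DESeq2, 197 without a filter and 0 to 695 when 1 library was left out, with 10, 0 and 695 without controls 1 to 3 and 33, 0 and 18 without Axin1 libraries 1 to 3.

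Axin1 and control libraries 1 share the title number 1813 and libraries 2 share 1814, while libraries 3 carry 1961 and 2198, and the labels do not say what these numbers mark. Deviations from the group means correlated at 0.234 and 0.152 for the libraries that share a number and at -0.023 for libraries 3. With 2 shared numbers and no label on their meaning, pairing was not established. A replicate block over 6 libraries called 0 of the 45 genes in either direction and 105 genes in all, and gave Wasl -0.001. A replicate block over the 4 libraries that share a title number called 5 of the 45 genes higher and 9 lower. Of all 12628 genes tested in it, 969 were called higher and 531 lower, 1500 in all. The 5 were Arpc2, Myh10, Tpm1, Vasp and Wasf2, and Pfn1 did not pass. The median over the 45 genes was -0.016 in this block. It turned Cfl2 to -0.078, Actr2 to -0.016, Capza2 to -0.119, Cap1 to 0.063, Wasl to -0.017, Limk1 to -0.18 and Rock1 to -0.12.

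Leaving out 1 library turned the sign in some fits for 13 genes, with ranges of -0.15 to 0.51 for Pfn2, -0.057 to 0.10 for Cfl2, -0.19 to 0.003 for Arpc4, -0.041 to 0.20 for Capza2, -0.27 to 0.15 for Cap1, -0.23 to 0.16 for Wasl, -0.14 to 0.34 for Enah, -0.37 to 0.14 for Myl9, -0.017 to 0.30 for Myh10, -0.61 to 0.10 for Tpm2, -0.36 to 0.082 for Tpm3, -0.048 to 0.16 for Tpm4 and -0.087 to 0.13 for Rock1. The causes were not tested. With 3 libraries a group, small fold changes of these genes were within the reach of 1 library.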
